A study of Mus musculus with 4 samples.

Results

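Endothelial genes were followed in the fetal liver of mice with 1 altered copy of Sox17, a transcription factor gene of arterial and other endothelium. The 39 genes were grouped by what is known of them, and were chosen with earlier results of these data known. Of these, 3 are markers of tip cells, 4 of arterial, 4 of venous and 6 of sinusoidal endothelium. Another 5 encode receptor tyrosine kinases, 2 encode ETS transcription factors, and 15 encode junction, surface and secreted proteins common to most endothelium. All 39 had a probe set that names that gene alone, out of 18193 genes with such a probe set, and each gene was read from its brightest one. After dim probe sets were set aside, 38 of the 39 and 11685 of all genes were tested. The arterial connexin gene Gja5 was not, with signals of 5.40 and 4.53 on the Sox17+/- arrays against 3.21 and 7.75 on the wildtype arrays.

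The groups were Sox17+/- fetuses and wildtype fetuses, both C57BL/6, taken on day 17 of gestation with 2 biological replicates each. C57BL/6 dams had been mated with Sox17+/- sires, and the labels name no agent for either genotype. The liver was separated from the biliary system, and RNA of the whole organ was hybridised, so that fewer endothelial cells and less RNA per endothelial cell cannot be told apart. How the allele was altered, and whether a replicate was 1 fetus or several, is not given in the sources used here.

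Endothelial cells line all vessels and take on different programmes by position. Liver sinusoids are lined by a fenestrated, scavenging endothelium that carries the receptors Stab1, Stab2 and Lyve1, whereas arteries express the ligand Efnb2 and connexins, and veins express its receptor Ephb4 and the factor Nr2f2. A sprouting vessel is led by a tip cell, which answers to VEGF and secretes Esm1, Apln and Angpt2. Notch signalling between neighbouring cells restrains tip cells and favours the arterial programme, in which Sox17 is also known to act.

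The arrays had been scaled to a common trimmed mean signal of 500, with medians between 84.7 and 103. The tissue label was borne out by hepatocyte genes such as Alb, whose signals were 42354 and 22768 on the Sox17+/- arrays against 40785 and 23777 on the wildtype arrays. Sox17 itself had signals of 139 and 124 on the Sox17+/- arrays against 244 and 264 on the wildtype arrays, with no overlap (log2 difference -0.87, SE 0.20). Wildtype array 1 stood apart in Actb, with a 3' signal of 11909.5 against 24712 to 35014 on the other arrays and a 3'/5' ratio of 1.95 against 1.20 to 1.43. Other controls set other arrays apart: the Tfrc 3'/5' ratio was highest on Sox17+/- array 1, at 4.31 against 3.38 on wildtype array 1, and that of Gapdh was 0.807 to 0.853 on all arrays. The BioB control was brighter on the arrays numbered 1 (1365 for Sox17+/- and 1843 for wildtype) than on those numbered 2 (604 for Sox17+/- and 609 for wildtype).

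Esm1 stood above all other endothelial genes in its difference, Apln followed, and most of the rest lay close to 0. Here and below a difference is that of mean log2(signal + 16), Sox17+/- minus wildtype. None of the 38 tested genes passed limma after adjustment over all 22519 probe sets (smallest adjusted p = 0.9999), as 0% of all probe sets passed in either direction. At an unadjusted p under 0.05 there were 2, Esm1 and Apln, against 4.15% of all tested genes. The difference was under 0.5 in size for 34 of 38, as for 89.6% of all tested genes, and the exceptions were Esm1, Apln, Nr2f2 and Tek. A log2 difference of 1 or more was reached by 1 gene, Esm1, against 0.941% of all tested genes. The median difference was 0.10, against -0.02 over all tested genes.

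Both Sox17+/- arrays lay above both wildtype arrays for 11 of 38 endothelial genes (28.9%), against 14.5% of all tested genes, and below both for 6 (15.8%), against 18.6%. In either direction this held for 33.2% of all tested genes. The share on the higher side moved with the setting. With each array centred on its median, 7 were above (18.4%, against 16.2% of all genes) and 3 below (7.89%, against 11.1%). With quantile normalization 9 were above (23.7%, against 15% of all genes), and with a gene's probe sets averaged 13 were (34.2%, against 13%). Without wildtype array 1, 21 were above the remaining wildtype array (55.3%, against 30.3%), and without wildtype array 2, 17 were below (44.7%, against 37.7%). Exact permutation of the genotype labels cannot give a p below 0.333 with so few arrays, so single genes were not tested in that way.

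Many of the genes differed in direction between the arrays numbered 1 and those numbered 2. Between the arrays numbered 1, 18 of 38 were higher in the Sox17+/- sample, against 45.7% of all tested genes. Between those numbered 2, 25 of 38 were, against 47.5%. In both of these pairs 13 genes were higher and 8 lower, against 25.5% higher and 32.2% lower of all tested genes, and 17 genes differed in direction.

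**Figure D1:**
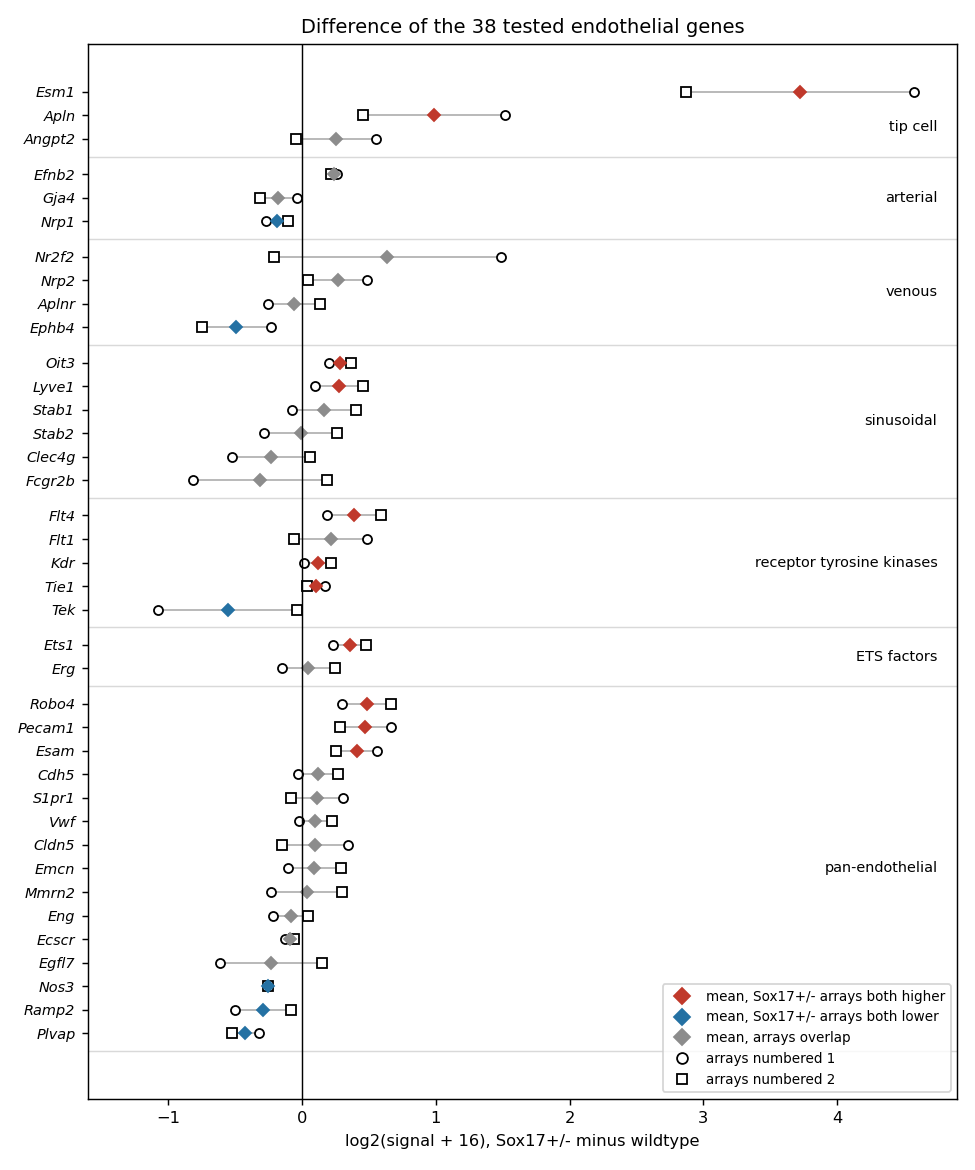
Difference in log2(signal + 16), Sox17+/- minus wildtype, for the 38 tested endothelial genes, grouped by role. Diamonds are means, red where both Sox17+/- arrays were higher, blue where both were lower and grey where the arrays overlapped; circles are the arrays numbered 1 and squares those numbered 2. Esm1 at 3.72 and Apln at 0.99 lie apart from the other genes, of which 34 are under 0.5 in size.

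The promoters of Esm1 and Apln are shown first, because these are the tip cell genes whose arrays did not overlap. Each window runs from 250 bases before to 50 after the start of the gene, from RefSeq on GRCm38.p6, at chr13:113209409-113209708 on the plus strand for Esm1 and at chrX:48034804-48035103 on the minus strand for Apln. Capitals mark matches to the motifs searched.
Esm1: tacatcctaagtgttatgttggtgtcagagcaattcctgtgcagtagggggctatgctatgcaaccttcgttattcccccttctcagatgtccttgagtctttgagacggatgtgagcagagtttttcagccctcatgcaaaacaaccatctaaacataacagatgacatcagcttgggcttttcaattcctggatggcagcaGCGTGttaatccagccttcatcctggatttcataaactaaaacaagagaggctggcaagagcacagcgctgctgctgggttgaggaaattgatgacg
Apln: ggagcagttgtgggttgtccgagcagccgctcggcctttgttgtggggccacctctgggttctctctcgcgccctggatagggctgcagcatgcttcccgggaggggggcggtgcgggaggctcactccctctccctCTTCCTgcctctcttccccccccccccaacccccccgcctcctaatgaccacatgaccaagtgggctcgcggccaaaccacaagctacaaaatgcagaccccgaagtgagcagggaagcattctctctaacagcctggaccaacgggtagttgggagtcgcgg
Motifs searched on both strands were the hypoxia response core (ACGTG or GCGTG), a SOX-type motif (ATTGTT) and an ETS-type motif (AGGAAG). Esm1 held 1 GCGTG, 47 bases before the start, and Apln held 1 CTTCCT, the ETS-type motif read on the other strand, 113 bases before the start.

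Promoter windows were at hand for 24 of the 39 genes, 28 windows in all. The ETS-type motif was in 15 of the 28 windows (53.6%), against 35.4% of all 32851 windows. The SOX-type motif was in 3 (10.7%), against 10.7%, and the hypoxia core in 8 (28.6%), against 43.8%. These are matches of letters and were not tested as binding sites.

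The tip cell genes were the group with the widest differences. Esm1, a proteoglycan secreted by VEGF-stimulated endothelium, had signals of 461 and 366 on the Sox17+/- arrays against 3.99 and 36.4 on the wildtype arrays, or 414 ± 67.1 against 20.2 ± 22.9 (mean ± SD, n = 2 each). The arrays were far from overlapping, and the difference was 3.72 (SE 0.48). Of all tested genes, 0.745% had higher Sox17+/- arrays without overlap at a log2 difference of 1 or more. Its unadjusted p in limma was 0.000467 and its adjusted p 0.9999.

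The size of the Esm1 difference rests on how dim signals are treated, and no exact fold can be read from it. Both wildtype signals were under 85.5, the lowest mean signal of any probe set tested, so Esm1 was tested only because of its Sox17+/- arrays. The difference was 4.92 with a pseudocount of 1 and 2.52 with a pseudocount of 64. It was 4.58 between the arrays numbered 1 and 2.87 between those numbered 2. With each array centred on its median the adjusted p was 0.0434, past the threshold, and 0.0840 when the filter was also set on mean linear signal.

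Apln, the peptide ligand of the apelin receptor, had signals of 458 and 232 on the Sox17+/- arrays against 149.8 and 165 on the wildtype arrays. Both Sox17+/- arrays were higher, but array 1 much more so, with differences of 1.52 between the arrays numbered 1 and 0.45 between those numbered 2. The mean difference was 0.99 (SE 0.35, unadjusted p = 0.0359 and adjusted p = 0.9999 in limma), and 0.52 without Sox17+/- array 1. For Aplnr, its receptor and a venous gene, signals were 370 and 375 on the Sox17+/- arrays against 444 and 340.1 on the wildtype arrays, which overlapped (-0.06, SE 0.23). The dimmer tested probe set of Aplnr had 103 and 69.6 on the Sox17+/- arrays against 129 and 110 on the wildtype arrays. It was lower without overlap (-0.42, SE 0.25).

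Angpt2, the angiopoietin that tip cells release and that competes at the receptor Tek, had signals of 201 and 95.8 on the Sox17+/- arrays against 132 and 99.1 on the wildtype arrays. These overlapped, with a difference of 0.26 (SE 0.37). The tip cell median over the 3 genes was 0.99, which is the value of Apln, and the genes ranged from 0.26 to 3.72.

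**Figure D2:**
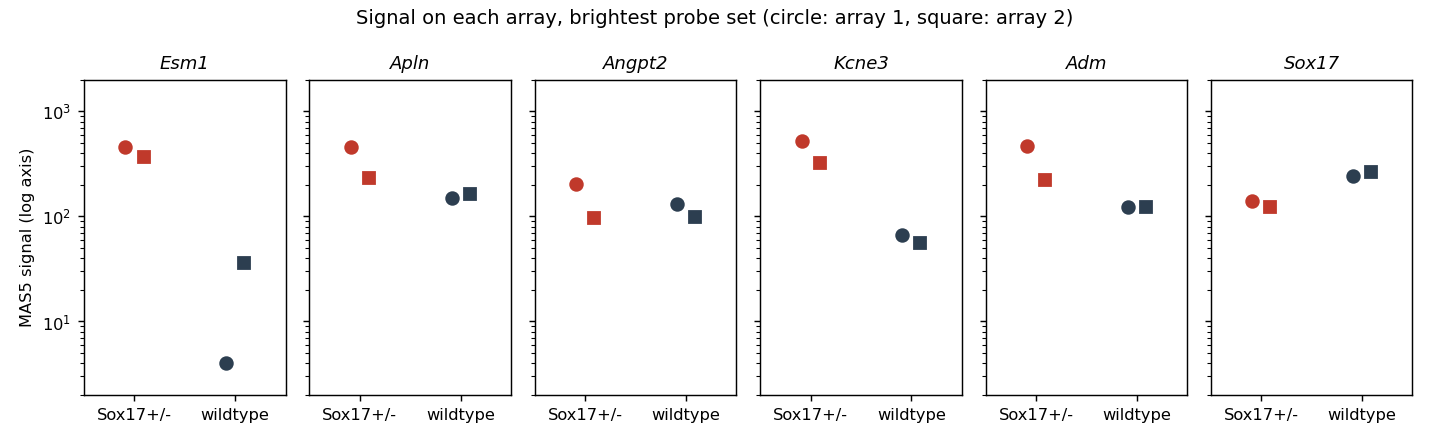
MAS5 signal (log axis) on each array for the tip cell genes Esm1, Apln and Angpt2, the other tip cell genes Kcne3 and Adm, and Sox17; red points are Sox17+/- arrays and dark points wildtype arrays, with circles for arrays numbered 1 and squares for arrays numbered 2. Esm1, Apln, Kcne3 and Adm are higher on both Sox17+/- arrays, Sox17 is lower, and Angpt2 overlaps.

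Among the receptors, 3 of 5 had both Sox17+/- arrays higher and 1 lower, against 14.5% higher and 18.6% lower of all tested genes. The differences were small, with a median of 0.12. Tek, the angiopoietin receptor, had the widest one, with signals of 209.5 and 296 on the Sox17+/- arrays against 459.7 and 304 on the wildtype arrays. The arrays did not overlap, but the difference of -0.56 (SE 0.30) came to -1.08 between the arrays numbered 1 and -0.04 between those numbered 2, and was -0.27 without wildtype array 1. Kdr, the main signalling receptor for VEGF, was 0.12 higher, Tie1, the partner of Tek, 0.10 higher and Flt4, the VEGF-C receptor, 0.39 higher, all with standard errors of 0.20 to 0.21. Kdr and Tie1 missed overlap by a narrow margin. The lower Sox17+/- signal and the higher wildtype signal were 379 and 375 for Kdr, and 185 and 183 for Tie1.

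Flt1, which binds VEGF and limits its access to Kdr, differed by probe set. The brightest had signals of 259 and 154 on the Sox17+/- arrays against 180.3 and 161 on the wildtype arrays, which overlapped (0.21, SE 0.29). The other 3 tested probe sets were all higher on both Sox17+/- arrays. In order of brightness, the next had 288 and 174 on the Sox17+/- arrays against 75.1 and 115 on the wildtype arrays (1.14, SE 0.33). Another had 220.3 and 171 on the Sox17+/- arrays against 68.5 and 96.8 on the wildtype arrays (1.11, SE 0.26). The wildtype mean of that probe set was under 85.5, so it was tested only because of its Sox17+/- arrays. The dimmest had 177 and 160.0 on the Sox17+/- arrays against 104 and 89.3 on the wildtype arrays (0.71, SE 0.21). None passed limma after adjustment (adjusted p = 0.9999). Flt1 is known to be made as a membrane receptor and as a shorter soluble form, and which form each probe set reads was not determined.

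The arterial genes had differences smaller than their standard errors. Nrp1, a co-receptor for VEGF and semaphorins, had signals of 703 and 717 on the Sox17+/- arrays against 849 and 771 on the wildtype arrays, without overlap (-0.18, SE 0.20). Its probe sets disagreed, and 2 of the other 3 were higher on both Sox17+/- arrays (0.21 and 0.31). The connexin gene Gja4 had signals of 113 and 136 on the Sox17+/- arrays against 116 and 173 on the wildtype arrays, and the arrays overlapped (-0.18, SE 0.26).
Efnb2, the arterial ephrin ligand, had signals of 208 and 149 on the Sox17+/- arrays against 171 and 126 on the wildtype arrays. Its arrays overlapped too, although both pairs were higher (0.24, SE 0.27). The arterial median of the 3 tested genes was -0.18.

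Of the venous genes, Ephb4, the receptor of Efnb2, was lower on both Sox17+/- arrays, with signals of 288 and 238 against 341 and 411 on the wildtype arrays (-0.49, SE 0.23). Nr2f2, the factor that sets venous identity by repressing Notch, had signals of 334 and 435 on the Sox17+/- arrays against 109 and 506 on the wildtype arrays. Its difference of 0.64 (SE 0.68) rested on wildtype array 1 and was -0.39 without it. Its next brightest probe set gave -0.40.
Nrp2, the co-receptor for VEGF-C found on veins and lymphatics, had signals of 205 and 141 on the Sox17+/- arrays against 142 and 136 on the wildtype arrays. The arrays overlapped by a narrow margin (0.27, SE 0.25), and its 3 tested probe sets ranged from -0.24 to 0.27. The venous median of 4 genes was 0.10.

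Sinusoidal genes, the most abundant endothelial programme of the liver, lay on both sides of 0, and the median of 6 was 0.08. Between the arrays numbered 1 the median was -0.18, with 2 of 6 genes higher in the Sox17+/- sample, against 45.7% of all tested genes. Between those numbered 2 it was 0.31, with 6 of 6 higher, against 47.5%. On both Sox17+/- arrays 2 were higher and 0 lower, and 4 overlapped, against 14.5% higher and 18.6% lower of all tested genes. Lyve1, a hyaluronan receptor, had signals of 4018 and 3785 on the Sox17+/- arrays against 3756 and 2755 on the wildtype arrays (0.28, SE 0.24). Its second probe set had 1698 and 1593 on the Sox17+/- arrays against 789.6 and 1074 on the wildtype arrays (0.83, SE 0.24). Both probe sets were higher without overlap, by unequal amounts.

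Oit3, a sinusoidal protein of the zona pellucida domain family, had signals of 960 and 1183 on the Sox17+/- arrays against 833 and 916 on the wildtype arrays, also without overlap (0.28, SE 0.22). The scavenger receptor gene Stab1 had 635 and 855 on the Sox17+/- arrays against 672 and 643 on the wildtype arrays, which overlapped (0.16, SE 0.23). Stab2, its relative and a clearance receptor for hyaluronan, had 1098 and 1379 on the Sox17+/- arrays against 1337 and 1145 on the wildtype arrays. Its difference was -0.01 (SE 0.23), and 0.039 with each array centred on its median.

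Fcgr2b, the inhibitory IgG receptor that clears immune complexes in sinusoids, had signals of 420 and 501 on the Sox17+/- arrays against 749.8 and 437 on the wildtype arrays. Clec4g, a sinusoidal lectin, had 556 and 476 on the Sox17+/- arrays against 809 and 455 on the wildtype arrays. In both, wildtype array 1 was the high one and the arrays overlapped, with differences of -0.31 (SE 0.31) for Fcgr2b and -0.23 (SE 0.32) for Clec4g. Without wildtype array 1 they were 0.066 and 0.17. All 4 tested Fcgr2b probe sets were below 0 in the mean difference, but all 4 were above 0 between the arrays numbered 2, at 0.026 to 0.25. The brightest carries the suffix _s_at, which marks probes shared among transcripts. That wildtype array 1 is also the array with the low Actb signal was measured, and its part in these values was not tested.

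The ETS factors bind and activate many endothelial promoters. Ets1 had signals of 1741 and 1585 on the Sox17+/- arrays against 1483 and 1131 on the wildtype arrays, without overlap (0.36, SE 0.23), while its 2 dimmest probe sets were at -0.11 and -0.09. Erg, which keeps endothelial junctions intact, was 0.05 apart (SE 0.23) with overlapping arrays.

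Of the 15 genes common to most endothelium, 3 were higher on both Sox17+/- arrays, 3 were lower and 9 overlapped. Over all tested genes 14.5% were higher and 18.6% lower. The median of the 15 genes was 0.09 and their range -0.42 to 0.48. Robo4, a receptor that stabilises vessels, had signals of 274 and 304 on the Sox17+/- arrays against 220.2 and 185 on the wildtype arrays (0.48, SE 0.21). The adhesion genes Pecam1 and Esam were the others on the higher side, at 0.47 (SE 0.26) and 0.41 (SE 0.27). On the lower side were Plvap, the diaphragm protein of fenestrae, at -0.42 (SE 0.26), Ramp2, the adrenomedullin co-receptor, at -0.29 (SE 0.23), and Nos3, the endothelial nitric oxide synthase, at -0.25 (SE 0.20).
The junction genes Cdh5 (0.12) and Cldn5 (0.10), the clotting carrier Vwf (0.10), the sphingosine phosphate receptor S1pr1 (0.11), the sialomucin Emcn (0.09) and the matrix protein Mmrn2 (0.04) overlapped. So did Eng, the TGF-beta co-receptor (-0.09), Ecscr (-0.09) and Egfl7, a secreted factor (-0.23). Cdh5 and Pecam1 are both used as general endothelial markers, and their differences were 0.12 (SE 0.21) and 0.47 (SE 0.26).

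Probe sets of a gene did not always go together. Of the 13 endothelial genes with more than 1 tested probe set, 7 (Egfl7, Eng, Ets1, Mmrn2, Nr2f2, Nrp1 and Nrp2) had probe sets on both sides of 0, and 6 had all on one side. Nr2f2 spread the most, from -0.40 to 0.64, and Flt1 next, from 0.21 to 1.14. The brightest probe set gave the lowest difference in 6 genes, Flt1, Lyve1, Flt4, Egfl7, Eng and Nrp1. It gave the highest in Aplnr, Efnb2, Ets1, Nr2f2 and Nrp2, and a value in between in Fcgr2b and Mmrn2.

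**Figure D3:**
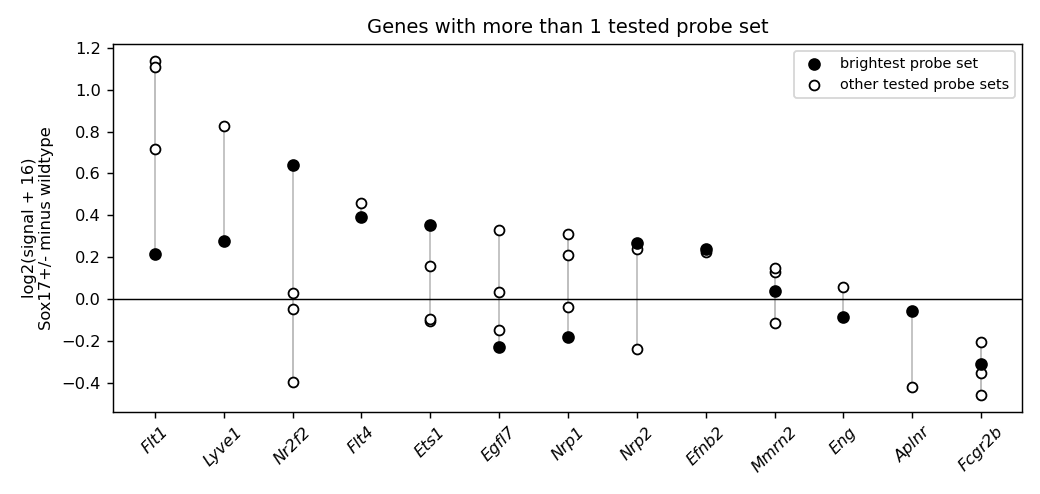
Difference in log2(signal + 16), Sox17+/- minus wildtype, of every tested probe set of the 13 endothelial genes with more than 1; filled points are the brightest probe set and open points the others. The 4 Flt1 probe sets run from 0.21 to 1.14, all above 0, and those of 7 genes lie on both sides of 0.

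Other genes of the same pathways were read from 6 further lists, in each of which 0 genes passed limma in either direction. The counts of genes without overlap in these lists, and in the marker lists after them, stand against 14.5% higher and 18.6% lower over all tested genes. Of the 6 tested ligands, 1 was higher and 1 lower on both Sox17+/- arrays. Vegfa, the growth factor that drives tip cells, had signals of 1006 and 1237 on the Sox17+/- arrays against 626 and 659 on the wildtype arrays (0.78, SE 0.22). Angpt1, the activating ligand of Tek, was lower, at 71.2 and 115 on the Sox17+/- arrays against 204 and 153 on the wildtype arrays (-0.85, SE 0.29). Vegfc and Angpt4 overlapped, at 0.31 and -0.42.

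Of 8 tested Notch genes, 3 were higher on both Sox17+/- arrays and 1 lower. The receptors Notch1 and Notch4 were higher by 0.43 (SE 0.22) and 0.60 (SE 0.25), and the netrin receptor Unc5b by 0.59 (SE 0.31). On the wildtype arrays Notch4 had signals of 103 and 66.8, and Unc5b 70.6 and 92.7. For both genes the wildtype mean was under 85.5, so they were tested only because of their Sox17+/- arrays. Hey1, a Notch target, was lower, with signals of 60.9 and 79.8 on the Sox17+/- arrays against 133 and 137 on the wildtype arrays (-0.82, SE 0.22). Both of its Sox17+/- signals were under 85.5, so it was tested only because of its wildtype arrays.
The Notch ligand Dll4, made by tip and arterial cells, had signals of 184 and 189.7 on the Sox17+/- arrays against 123 and 202 on the wildtype arrays, which overlapped.

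Of 9 other tip cell genes, 3 were higher on both Sox17+/- arrays and 0 lower, with a median of 0.29. Kcne3, a potassium channel subunit, had signals of 522 and 325 on the Sox17+/- arrays against 66.4 and 55.4 on the wildtype arrays (2.48, SE 0.29). Like Esm1 it was tested only because of its Sox17+/- arrays. Adm, the vessel-dilating peptide adrenomedullin, had 464 and 222 on the Sox17+/- arrays against 123 and 123 on the wildtype arrays (1.28, SE 0.37). Nid2, a basement membrane protein, was 0.29 higher without overlap, and Igfbp3 was at 0.33 with overlap.

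Of 13 tested other sinusoidal genes, 3 were higher on both Sox17+/- arrays and 6 lower, with a median of -0.20 (over all tested genes, 14.5% were higher and 18.6% lower). Icam1, the leukocyte adhesion molecule, was 1.13 higher (SE 0.26) and Bmp2, the sinusoidal signal to hepatocytes for iron control, 0.72 higher (SE 0.27). Dnase1l3, a secreted nuclease, was lower, at -0.71 (SE 0.20), as was Gata4, the factor that sets sinusoidal identity, at -0.55 (SE 0.20). Of 15 surface genes, 5 were higher and 2 lower, among them Cd93 at 0.51, Adgrf5 at 0.76, Procr at 0.66 and Thbd at -0.73. Of 13 transcription factors, 3 were higher and 5 lower. Besides Sox17 these included Sox18, its SOXF relative, at 0.46 (SE 0.21), Gata2 at -0.47 (SE 0.24) and the flow-induced factor Klf2 at -0.44 (SE 0.20).

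**Figure D4:**
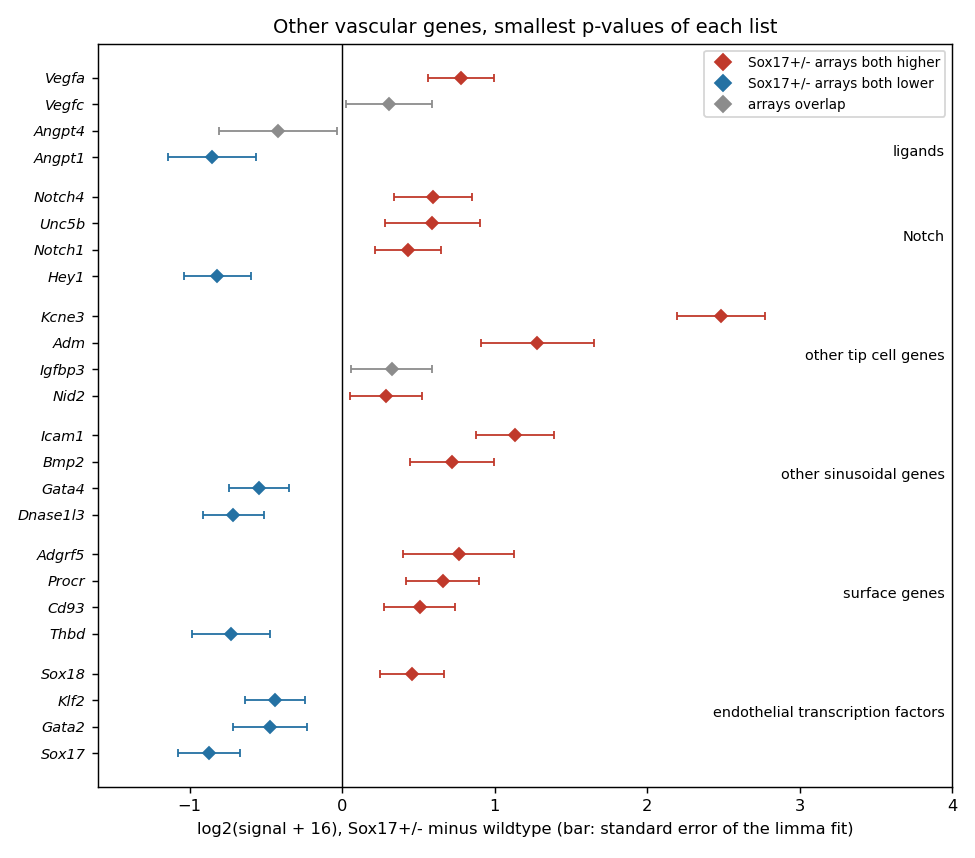
Difference in log2(signal + 16), Sox17+/- minus wildtype, of the genes with the smallest p in each of 6 lists of other vascular genes, up to 4 per list. Diamonds are differences, red where both Sox17+/- arrays were higher, blue where both were lower and grey where they overlapped, with standard errors of the limma fit as bars; Kcne3 at 2.48 and Adm at 1.28 are the widest.

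Markers of other cells moved beside these values, and in each of 9 marker lists 0 genes passed limma in either direction. Over 10 endothelial markers, all tested, 4 were higher on both Sox17+/- arrays and 1 lower, and their summed signal was 4727 and 4017 on the Sox17+/- arrays against 4210 and 3502 on the wildtype arrays, which overlapped. Of 11 pericyte, stellate cell and fibroblast markers 5 were higher and 1 lower, with summed signals of 15628 and 16586 on the Sox17+/- arrays against 14416 and 13441 on the wildtype arrays. The widest were the pericyte genes Rgs5 at 2.14 (SE 0.39), Kcnj8 at 2.29 (SE 0.63) and Abcc9 at 1.44 (SE 0.24). The muscle filament gene Des was at 1.11 (SE 0.31) and Lrat 0.29 higher, while Acta2 was the lower one, at -0.16 (SE 0.20). The pericyte receptor gene Pdgfrb overlapped at 0.13 (SE 0.22), as did Reln (0.02), Col1a1 (0.06), Col3a1 (0.02) and Dcn (0.20). Rgs5 had signals of 354 and 228 on the Sox17+/- arrays against 77.7 and 33.7 on the wildtype arrays, both of the wildtype ones under 85.5, so it was tested only because of its Sox17+/- arrays. Kcnj8 had 602 and 296 on the Sox17+/- arrays against 144 and 34.5 on the wildtype arrays, the last also under 85.5. On the log scale used for the filter, the wildtype mean of Kcnj8 fell below the filter. Kcnj8 was thus also tested only because of its Sox17+/- arrays.

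Of 7 megakaryocyte and platelet markers 0 were higher and 6 lower, with summed signals of 23386 and 24002 on the Sox17+/- arrays against 29627 and 28378 on the wildtype arrays. Megakaryocytes also express Pecam1 and Vwf. Of 9 macrophage and Kupffer cell markers 1 was higher and 4 lower, with summed signals of 23574 and 20730 on the Sox17+/- arrays against 23755 and 19766 on the wildtype arrays. Single genes of this list diverged more than its sum. The Kupffer cell gene Vsig4 had signals of 130 and 194 on the Sox17+/- arrays against 811 and 364 on the wildtype arrays (-1.68, SE 0.43), and the Kupffer cell lectin Clec4f was at -0.83 (SE 0.35). The scavenger receptor gene Marco was on the other side, at 1.03 (SE 0.30). Macrophages also express Fcgr2b and Stab1. Cd5l and Adgre1 of the macrophage list lay near 0, at 0.02 (SE 0.21) and -0.07 (SE 0.20). The part of megakaryocytes, macrophages and other cells in the endothelial values was not tested. Of the other lists, hepatocyte markers were higher on both Sox17+/- arrays for 0 of 7 tested genes and lower for 0, erythroid markers higher for 1 of 6 and lower for 1, lymphoid markers higher for 0 of 3 and lower for 1, and biliary markers higher for 0 of 3 and lower for 0. Of 3 lymphatic markers the higher one was Lyve1 itself, and Prox1 and Pdpn overlapped.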

How the data were processed

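Per the labels, biotin-labelled cRNA of whole fetal liver from 2 Sox17+/- and 2 wildtype samples was hybridised to 4 single-colour arrays. The deposited intensity values are probe set signals, and the submitters' processing notes name MAS5 as the tool. On each array the mean after trimming 2% at either end was 500. MAS5 computes each array alone, so dim signals are noisy, and scaling removes differences in total RNA.

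Of 45037 probe sets without controls, 34945 had 1 gene symbol in the platform annotation, 932 several and 9160 none listed. Each gene was read from its brightest probe set with 1 symbol. Values were put on the log2(signal + 16) scale, on which dim genes show too small a fold. Probe sets in the upper 50% by their mean on that scale, 22519 in all, entered a two-sided limma test (version 3.58.1, R 4.3.3, with lmFit and eBayes) on genotype alone, with 2 residual and 3.24 prior degrees of freedom. Benjamini-Hochberg adjustment covered all of them, with a threshold of 0.05, and the code was tested on simulated data. The p-values weigh each difference against the spread between these samples, moderated over all tested probe sets. Because the labels do not say whether a replicate was 1 fetus or several, whether that spread is between fetuses or between pools is not known. Alternatives changed the pseudocount, the filter, the scaling, the prior, the probe set rule, the arrays included and the pairing.

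The members, gene lists and tests were chosen with earlier results of these data known. Array values are given for every tip cell, arterial, venous and sinusoidal member, for members whose arrays did not overlap at a log2 difference of 1 or more, and for the member with the largest difference of each group. Up to 4 genes with the smallest p were named for each of the 6 lists of other vascular genes, and Sox17. Probe sets, markers and further members named beyond this rule were chosen after their values were seen. Promoter windows and build GRCm38.p6 are those of RefSeq.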

Additional observations from a re-analysis of the deposited data

How the results depend on the processing

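With 2 arrays per genotype, few differences of this size could pass, and a p above the threshold does not show that levels were equal. Over all probe sets 0 passed limma as reported, against 5 with each array centred on its median, 3 with a trended and robust prior, and 3 with a filter on mean linear signal together with centring, an alternative added after seeing the data. Of the members, 1 (Esm1) passed, only with centring (adjusted p = 0.0434), and with the linear filter and centring together its adjusted p was 0.0840. Leaving out each array in turn gave 0 calls for members and for all probe sets, in fits where the lone array of a genotype is assumed to vary like the other genotype, so these say little about stability.

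The count of members with Sox17+/- arrays above both wildtype arrays was 6 among the brighter 25% of probe sets, where 18 members were tested (33.3%, against 16.1% of all genes), and 7 of 38 with centring (18.4%, against 16.2%). The count below was 3 under each (16.7%, against 16.4%, among the brighter 25%, and 7.89%, against 11.1%, with centring). With 1 array left out, which compares 2 arrays with 1, the counts were 12 to 21 of 38 above, against 29.2 to 31.4% of all genes, and 8 to 17 below, against 34.7 to 37.7%. The arterial median was -0.10 with no filter, -0.13 with centring and 0.074 with a gene's probe sets averaged, and -0.20 to 0.039 with 1 array left out. The venous median was -0.16 with probe sets averaged, and -0.13 to 0.19 with 1 array left out. Among the brighter 25% Flt4 was the only receptor tested, so the receptor median there was its value of 0.39, and the pan-endothelial median was -0.13 to 0.18 with 1 array left out. The tip cell median was 0.52 to 1.45 and the sinusoidal median -0.086 to 0.19 with 1 array left out.

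Of 550 values of single members under 15 settings, 28 had the opposite sign, in 19 of 38 members, and 6 of these in 5 members did not come from leaving out an array. Stab2 was 0.039 with centring, with or without the linear filter. With probe sets averaged, Clec4g was 0.14, Erg -0.084, Nr2f2 -0.088 and Nrp1 0.074. With 1 array left out, the ranges that crossed 0 were -0.22 to 0.74 for Angpt2, -0.24 to 0.13 for Aplnr, -0.020 to 0.26 for Cdh5, -0.089 to 0.28 for Cldn5, -0.64 to 0.17 for Clec4g, -0.37 to 0.18 for Ecscr, -0.56 to 0.099 for Egfl7, -0.28 to 0.47 for Emcn, -0.14 to 0.23 for Erg, -0.69 to 0.066 for Fcgr2b, -0.13 to 0.56 for Flt1, -0.44 to 0.079 for Gja4, -0.18 to 0.25 for Mmrn2, -0.39 to 1.67 for Nr2f2, -0.13 to 0.36 for S1pr1, -0.048 to 0.37 for Stab1, -0.17 to 0.15 for Stab2 and -0.074 to 0.27 for Vwf. The causes were not tested.

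The labels number the arrays 1 and 2 in each genotype and state no pairing. Deviations from the genotype means correlated between same-numbered arrays (r = 0.383 over 22519 probe sets). With the array number as a replicate block, 0 probe sets and 0 members passed, and 1693 probe sets had an unadjusted p under 0.05, against 923 without the block.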
